A study of Homo sapiens with 15 samples.

Results

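Latent cells (Lat) and synchronous brain metastasis cells (S-BM) of the HER2-positive breast cancer line HCC1954 were compared across all genes whose normalised read count reached at least 10 in 4 or more of the 8 Lat and S-BM libraries. That filter kept 9493 of the 19845 genes in the table, and every one of them entered the test. The series set parental cells of this line beside derivatives from the brain: latent or residual cells, and cells of synchronous and of metachronous metastases (M-BM). The 4 M-BM libraries share the table and entered only the estimate of the spread, and the parental libraries, in a table of their own, were not used here.

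Each group held 4 libraries, numbered 1 to 4. Lat cells are labelled as brain-tropic latent or residual cells, S-BM cells as synchronous brain metastasis cells, and no genotype, allele or drug is given for either. All of them were cells grown in a dish: they were kept overnight in R3F medium, the same for both groups, before total RNA was extracted. The libraries therefore describe cultured derivatives of the line, not cells inside a brain. Whether the 4 libraries of each group stem from separate cultures, clones or animals is not stated in the labels, so that the p-values measure the spread between libraries, which may be technical.

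HCC1954 is an established human line with amplified ERBB2, which encodes the receptor HER2. Cells that leave a tumour can rest for long periods in another organ before some of them grow out, and the resting state has been linked to changes in adhesion, secretion, metabolism and signalling. A table of transcript levels holds many such systems at once, and here they are described family by family, by what the encoded proteins do.

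Total reads recovered from the normalised values ran from 14152829 to 19498617 in Lat and from 13253870 to 20048838 in S-BM libraries. A limit of 3 reads equalled a normalised count of 0.154 to 0.209 in Lat and 0.152 to 0.225 in S-BM libraries, and covers counting error only. Of 12 markers of HER2-positive breast epithelium, 11 passed the filter, among them EPCAM and the keratins KRT7, KRT8 and KRT18, and KRT19 did not. Summed levels of the fibroblast markers were 6.09 to 21 in Lat and 3.25 to 6.40 in S-BM libraries. Those of the endothelial markers were 6.97 to 7.92 in Lat and 14.3 to 27.7 in S-BM libraries, and the part of such cells in the results was not tested. Of 25 markers of fibroblasts, endothelium, leukocytes, microglia, astrocytes, neurons and oligodendrocytes in the table, 3 passed the filter, CD68, MAP2 and MBP (the last at 92.5 to 121 in Lat and 75.5 to 105 in S-BM libraries), while PTPRC, AIF1, GFAP, SNAP25, MOG and PDGFRA stayed below 1 in all 8 libraries. In bulk RNA fewer cells of a type and less RNA per cell cannot be told apart. Lat 1 and Lat 2, and S-BM 3 and S-BM 4, were the most alike pairs of their groups, with a chi-square per degree of freedom of 4.91 and 4.11 between their reads, against 11.3 to 55.6 and 43.4 to 88.8 for the other pairs of Lat and of S-BM. S-BM 3 and S-BM 4 stood apart from S-BM 1 and S-BM 2 in the HER2 amplicon, with an ERBB2 count of 353 and 367 against 4109 and 4642, beside 2836 to 3775 in Lat, so the results were also taken without them.

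Lat and S-BM cells differed in the majority of their measured transcripts. At a limma adjusted p below 0.05, 5668 of 9493 genes were called (59.7%), of which 2845 were higher (30%) and 2823 lower (29.7%) in Lat. The 4 Lat values lay wholly above or wholly below the 4 S-BM values for 5179 genes (54.6%). A difference of at least 2-fold, on the log2(value + 1) scale used throughout, was called for 1249 genes (13.2%), with 517 higher (5.45%) and 732 lower (7.71%). Without S-BM 3 and S-BM 4, 5041 genes were called (53.1%), with 25.8% of all genes higher and 27.3% lower. Of the 5668, 4626 kept their call and direction (48.7% of all genes tested). None changed to a call in the other direction, and 1233 of the 1249 larger differences kept theirs. The median log2 difference over all genes tested was 0 with and without S-BM 3 and S-BM 4, and the percentages above are the background against which each family below is read. A gene below 10 in every library of 1 group passed the filter through the other group alone, so that its direction was set by the filter. Family counts and medians include such genes. Of the 58 families described here, 19 had more members higher than lower and 19 of these kept that without S-BM 3 and S-BM 4, while 37 had more members lower and 35 kept it, autophagy and the cytosolic ribosomal proteins being the exceptions. Over all called genes 81.6% kept call and direction. Of the 229 genes named below that were called, 228 kept both without the 2 libraries, and RAB27B did not. Genes were named for large changes and in part for keeping the call, so that this count was largely set by the choice.

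**Figure D1:**
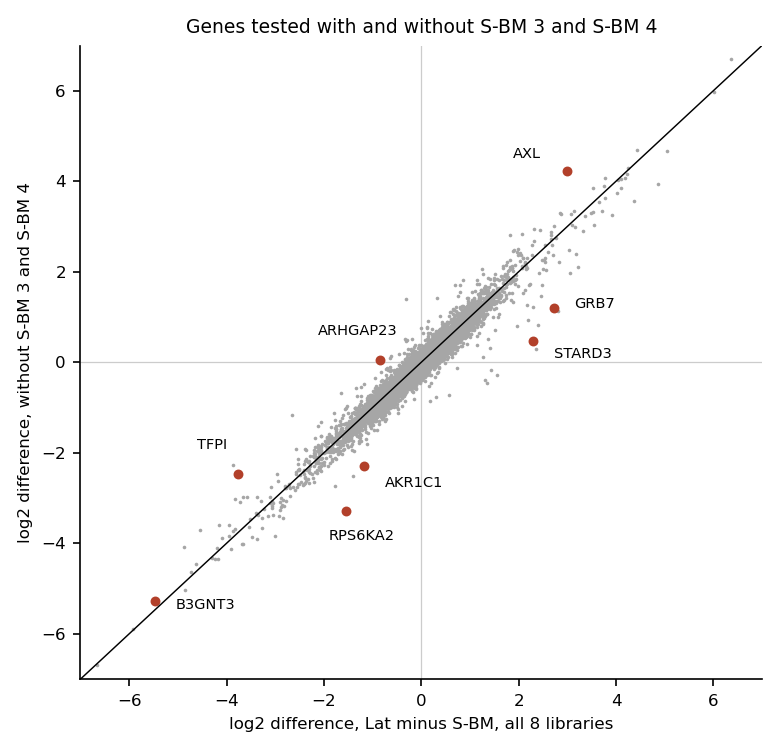
Log2 difference, Lat minus S-BM, of each of the 9493 genes tested, from all 8 libraries (horizontal axis) and without S-BM 3 and S-BM 4 (vertical axis); the line marks equal values. Most points lie near the line; among those off it, GRB7, STARD3 and TFPI are closer to 0 without the 2 libraries, and RPS6KA2, AKR1C1 and AXL farther from it.

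A small set of genes was present in all 4 libraries of a group and close to absent in all 4 of the other. 10 genes had a normalised count of at least 10 in every Lat library and below 1 in every S-BM library, and 8 genes had the reverse. ZDHHC4, which encodes a palmitoyltransferase, had 13.7, 14.5, 19.98 and 14.1 in Lat 1 to 4, against 0, 0, 0 and 0 in S-BM 1 to 4, so that it was at least 86.1-fold higher in Lat, taking 3 reads per S-BM library. ADAM12, a membrane metalloprotease, had 28.2, 28.1, 21.6 and 29.0 in Lat 1 to 4, against 0, 0.152, 0.45 and 0.582 in S-BM 1 to 4. Further genes of this kind in Lat were EVC, a protein of the primary cilium, COL15A1, the basement membrane collagen XV, PVRL3, the adhesion protein nectin-3, FAM92A1, and the zinc finger genes ZNF43, ZNF83 and ZNF702P. Lat means of these 9 genes ran from 12.1 to 26.7.

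In the opposite direction, B3GNT3, a glycosyltransferase that extends mucin-type O-glycans, had 0.0514, 0, 0 and 0 in Lat 1 to 4, against 46.9, 30.9, 50.6 and 51.3 in S-BM 1 to 4. The 4 Lat libraries held 1 read in all, and the ratio of S-BM to Lat was 3140, with a wide exact 95% interval of 562 to 124000 that covers counting error only. STAT6, the transcription factor activated by interleukins 4 and 13, had 0.308, 0.0554, 0.673 and 0.628 in Lat 1 to 4, against 17.8, 14.2, 27.5 and 25.8 in S-BM 1 to 4, with a log2 difference of -3.96. SNX19, a sorting nexin, and HNMT, which inactivates histamine, were below 1 in each Lat library and averaged 18.97 and 18.5 in S-BM. LMAN1, a cargo receptor that carries glycoproteins out of the endoplasmic reticulum, had 0, 0, 0 and 0 in Lat 1 to 4, against 89.6, 118, 99.0 and 95.8 in S-BM 1 to 4. WDR72, KRT4 and GGT6 completed the set. All 18 genes kept their call without S-BM 3 and S-BM 4, and their direction was fixed by the limits that define the set.

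Among genes at or above the median level whose groups did not overlap, several of the largest increases in Lat belonged to signalling and cytoskeletal genes. FOSL1, the AP-1 subunit FRA1, had 178, 179, 247 and 174 in Lat 1 to 4, against 21.5, 6.88, 19.6 and 19.96 in S-BM 1 to 4. The groups were far apart, with a log2 difference of 3.54 ± 0.29 (SE, limma adjusted p = 7.16e-07, n = 4 each). AXL, a receptor tyrosine kinase bound by GAS6, had 433, 411, 329 and 351 in Lat 1 to 4, against 50.02, 7.03, 109 and 114 in S-BM 1 to 4. Its level in S-BM 2 was well under that of the other S-BM libraries, and the log2 difference was 2.99, against 4.23 without S-BM 3 and S-BM 4.

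PFN2, an actin monomer-binding profilin, had 98.4, 105, 107 and 110.1 in Lat 1 to 4, against 11.5, 8.75, 19.1 and 16.7 in S-BM 1 to 4, and PIM3, a serine/threonine kinase of the PIM family, had 156, 159, 163 and 111 in Lat 1 to 4, against 23.5, 15.1, 23.5 and 28.9 in S-BM 1 to 4. RASSF8, of the RAS association domain family, and PPP2R2C, a regulatory subunit of protein phosphatase 2A, differed by 2.55 and 2.67 on the log2 scale. FN1, the matrix protein fibronectin, had 1817, 1795, 4951 and 1940.1 in Lat 1 to 4, against 415, 546, 343 and 341 in S-BM 1 to 4, with Lat 3 well above the other Lat libraries. STC2, a secreted glycoprotein, differed by 2.31 and MYEOV by 2.67. Keeping the call without S-BM 3 and S-BM 4 was part of the rule that chose these 9 genes. Their log2 differences lay between 2.31 and 4.23 when those libraries were left out.

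**Figure D2:**
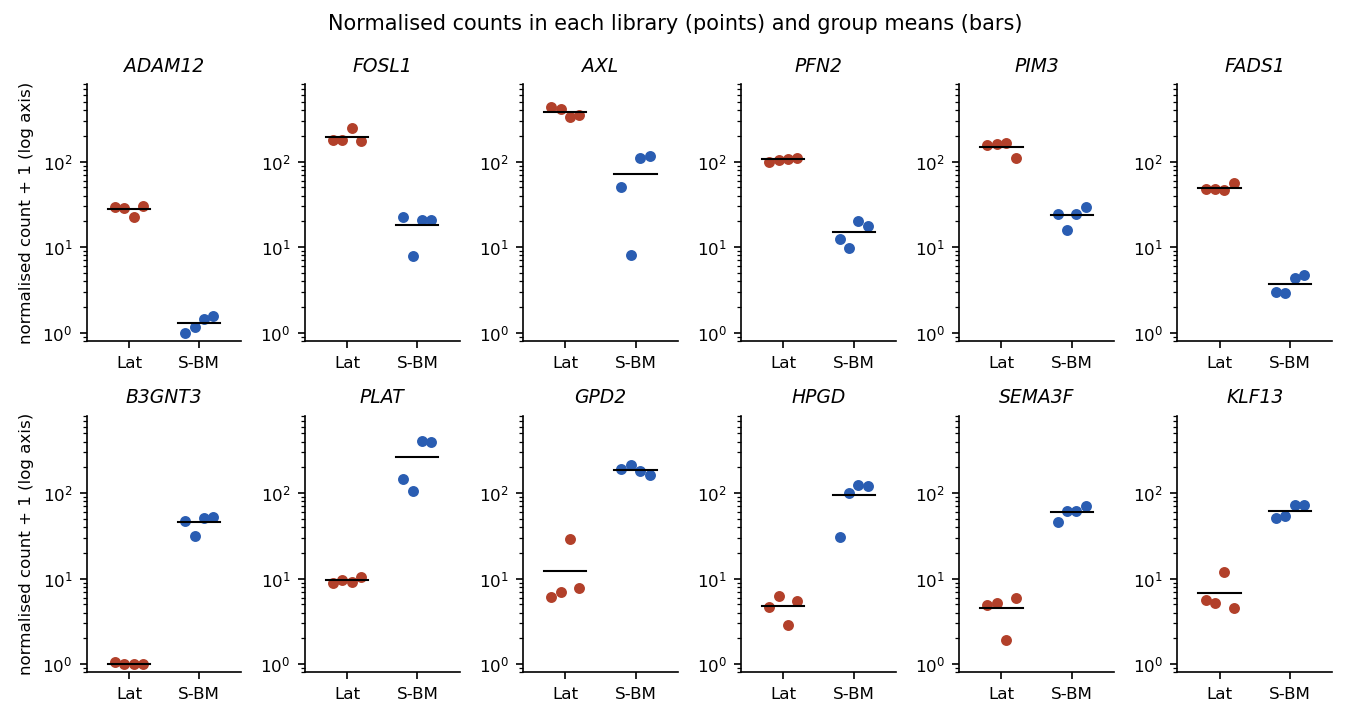
Normalised read count, plotted as value + 1 on a log axis, of 12 genes in each library, with the 4 Lat libraries left and the 4 S-BM libraries right in each panel; bars mark group means. Lat lies above S-BM for ADAM12, FOSL1, AXL, PFN2, PIM3 and FADS1, and below it for B3GNT3, PLAT, GPD2, HPGD, SEMA3F and KLF13. None of the 12 panels shows overlap, which for most of these genes was part of the rule that chose them.

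The largest decreases in Lat held enzymes, secreted proteins and a transcription factor. PLAT, the tissue plasminogen activator, had 7.96, 8.69, 8.08 and 9.48 in Lat 1 to 4, against 144, 104, 403 and 401 in S-BM 1 to 4. It was lower in every Lat library, by more against S-BM 3 and S-BM 4 than against S-BM 1 and S-BM 2, with log2 differences of -4.55 and -3.70 with and without S-BM 3 and S-BM 4. GPD2, the mitochondrial glycerol-3-phosphate dehydrogenase of the glycerophosphate shuttle, had 5.14, 5.98, 27.7 and 6.83 in Lat 1 to 4, against 191, 211, 183 and 163 in S-BM 1 to 4. Lat 3 was above the other Lat libraries and still far under S-BM, and the log2 difference was -4.24 ± 0.62 (SE, limma adjusted p = 5.65e-05, n = 4 each).

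HPGD, the enzyme that inactivates prostaglandins, had 3.65, 5.32, 1.86 and 4.46 in Lat 1 to 4, against 30.1, 100.5, 123 and 121 in S-BM 1 to 4. KLF13, a Krüppel-like zinc finger factor, had 4.62, 4.15, 10.9 and 3.49 in Lat 1 to 4, against 49.8, 53.03, 71.0 and 71.8 in S-BM 1 to 4, a log2 difference of -3.30 that was -3.06 without S-BM 3 and S-BM 4. CFI, the complement factor I protease, and TFPI, the inhibitor of the tissue factor pathway, differed by -3.55 and -3.76. For TFPI the size depended on S-BM 3 and S-BM 4, since without them the log2 difference was -2.47. MUC16 and MUC20, cell-surface mucins, differed by -3.27 and -3.23.

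Receptors and ligands that guide axons and sort cells at contacts were lower in Lat as a family. Of 12 tested Eph receptors and ephrins, 10 were lower and 1 was higher, with a median log2 difference of -1.20, and without S-BM 3 and S-BM 4 8 were lower and the median was -1.22. EPHB6, a member that lacks kinase activity, had 2.52, 1.38, 3.68 and 2.93 in Lat 1 to 4, against 28.5, 11.9, 36.4 and 38.6 in S-BM 1 to 4. The kinase receptor EPHB2 had 15.8, 16.9, 41.5 and 15.8 in Lat 1 to 4, against 85.9, 76.8, 94.2 and 102 in S-BM 1 to 4. EPHB3 and EPHA1 differed by -1.94 and -1.66, the ephrin ligands EFNA4 and EFNA5 by -1.40 and -1.28. EPHB6, EPHB3 and EFNA4 were below 10 in every Lat library and passed the filter through S-BM alone, which set their direction.

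EPHA2 went the other way, with 216, 201, 368 and 179.6 in Lat 1 to 4, against 110.3, 53.5, 110.1 and 114 in S-BM 1 to 4. Its groups did not overlap, and the log2 difference was 1.31 ± 0.25 (SE, limma adjusted p = 0.00053, n = 4 each). The remaining member, the ligand EFNB2, was not called, at -0.54.

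Semaphorins, plexins, netrins and slits had 9 of 17 tested members lower and 2 higher, and a median of -0.40 that was -0.69 without S-BM 3 and S-BM 4. SEMA3F, a secreted semaphorin that binds neuropilins, had 3.95, 4.21, 0.932 and 4.95 in Lat 1 to 4, against 44.7, 60.8, 60.1 and 69.1 in S-BM 1 to 4, and its log2 difference of -3.83 was among the 20 largest decreases by the rule stated with the methods. SEMA3E, the ligand of plexin D1, and PLXNB1, the semaphorin 4D receptor, differed by -2.36 and -1.75, and the neuropilin NRP1 by -1.12. PLXNB2 and SEMA7A were higher, by 1.15 and 0.96.

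In a list of protocadherins and related cadherins 27 of 30 tested genes were lower, but this count rests largely on a single locus. The PCDHG genes of chromosome 5 share their 3′ constant exons, and the log2 differences of the 22 listed here lay between -2.05 and -1.75, so that they were read as 1 locus and not as separate members. PCDHGC3 had 12.1, 10.5, 13.8 and 15.1 in Lat 1 to 4, against 40.4, 58.6, 63.3 and 66.3 in S-BM 1 to 4. Without the gamma cluster 5 of 8 members were lower and 1 was higher, with a median of -0.86. Among them PCDH7, a delta protocadherin, differed by -2.17. The seven-pass cadherins CELSR1 and CELSR2, which the list also holds though they are not protocadherins, differed by -1.12 and -1.34. In the neurotrophin and neuronal cytoskeleton list 4 of 6 were lower and 0 higher: SORT1, a sorting receptor for neurotrophin precursors, and MARCKS, an actin and phosphoinositide binding protein, differed by -1.52 and -1.55.

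Proteins of the epithelial surface moved in the same direction more often than not. 11 of 15 tetraspanins, membrane proteins that organise partner receptors into patches, were lower and 0 were higher. TSPAN1 had 15.7, 14.5, 1.86 and 30.3 in Lat 1 to 4, against 105, 100.9, 104 and 99.0 in S-BM 1 to 4, with Lat 3 lowest, while CD9 showed no call, with a log2 difference of -0.05. For tight junction genes 12 of 22 were lower and 5 higher, and without S-BM 3 and S-BM 4 the counts were 10 and 2.

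TJP3, the junction scaffold ZO-3, had 2.67, 2.88, 2.28 and 3.70 in Lat 1 to 4, against 31.4, 35.8, 18.7 and 22.4 in S-BM 1 to 4. CLDN1, a claudin of the paracellular seal, had 133, 152, 185 and 124 in Lat 1 to 4, against 348, 634, 708 and 652 in S-BM 1 to 4. The groups did not overlap for either gene, and the claudin CLDN8 and cingulin (CGN) differed by -1.91 and -1.68. The related scaffold TJP1 (ZO-1) and the polarity protein PARD6B were higher in Lat, by 0.79 and 1.13.

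Desmosome, plakin and cornified envelope genes had 10 lower and 1 higher of 19, with the desmosomal cadherin DSG2 at -1.58, the junction protein PERP at -1.18, and the cytolinker PLEC, the member that was higher, at 0.80. All 4 tested mucin genes were lower. The list of kallikreins and membrane serine proteases had 9 of 15 lower. Among them was TMPRSS4, with 9.19, 7.64, 6.11 and 14.9 in Lat 1 to 4, against 66.3, 107, 64.0 and 64.9 in S-BM 1 to 4. The urokinase gene PLAU and the proprotein convertase FURIN were higher, by 0.81 and 0.53, so that the plasminogen activators PLAT and PLAU differed in opposite directions.

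Laminins and other basement membrane genes had 5 of 17 higher (29.4%, near the 30% of all genes) and 8 lower (47.1%, against 29.7%). LAMB2 had 34.8, 28.3, 24.0 and 34.6 in Lat 1 to 4, against 123, 124, 169 and 162 in S-BM 1 to 4, and LAMB3, the beta chain of epithelial laminin-332, had 832, 777, 1356 and 858 in Lat 1 to 4, against 381, 235, 472 and 494 in S-BM 1 to 4. The laminin-332 alpha chain LAMA3 was higher by 0.97, and COL18A1, the collagen from which endostatin is cut, was lower, at -1.63.

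Ion channels and pumps made up a further group with more decreases than increases. Calcium, sodium, chloride and TRP channels were lower for 20 and higher for 7 of 31 tested genes, with a median log2 difference of -0.56 and of -0.57 without S-BM 3 and S-BM 4. TMC5, a transmembrane channel-like protein, had 16.999, 16.1, 32.6 and 18.1 in Lat 1 to 4, against 184, 191, 126 and 119.9 in S-BM 1 to 4. ANO1, a calcium-activated chloride channel, had 117, 116, 106 and 175 in Lat 1 to 4, against 424, 500.0, 345 and 358 in S-BM 1 to 4. SCNN1A, the alpha subunit of the epithelial sodium channel, TRPV6, a calcium channel, and CLCA2, a regulator of chloride conductance, differed by -1.79, -1.63 and -1.87. CLCN4, a chloride and proton exchanger of endosomes, was higher by 1.68.

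P-type ATPases had 10 lower and 3 higher of 21, including the sodium pump subunit ATP1B1 at -1.86 and the copper exporter ATP7A at -1.604. ATP2C2, a calcium and manganese pump of the secretory pathway, rose by 1.88. Of 152 solute carriers 62 were lower and 32 higher. Within them the glutamate transporters SLC1A1 and SLC1A3 differed by -2.78 and -2.18 and the transporter SLC43A3 by -3.82.

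**Figure D3:**
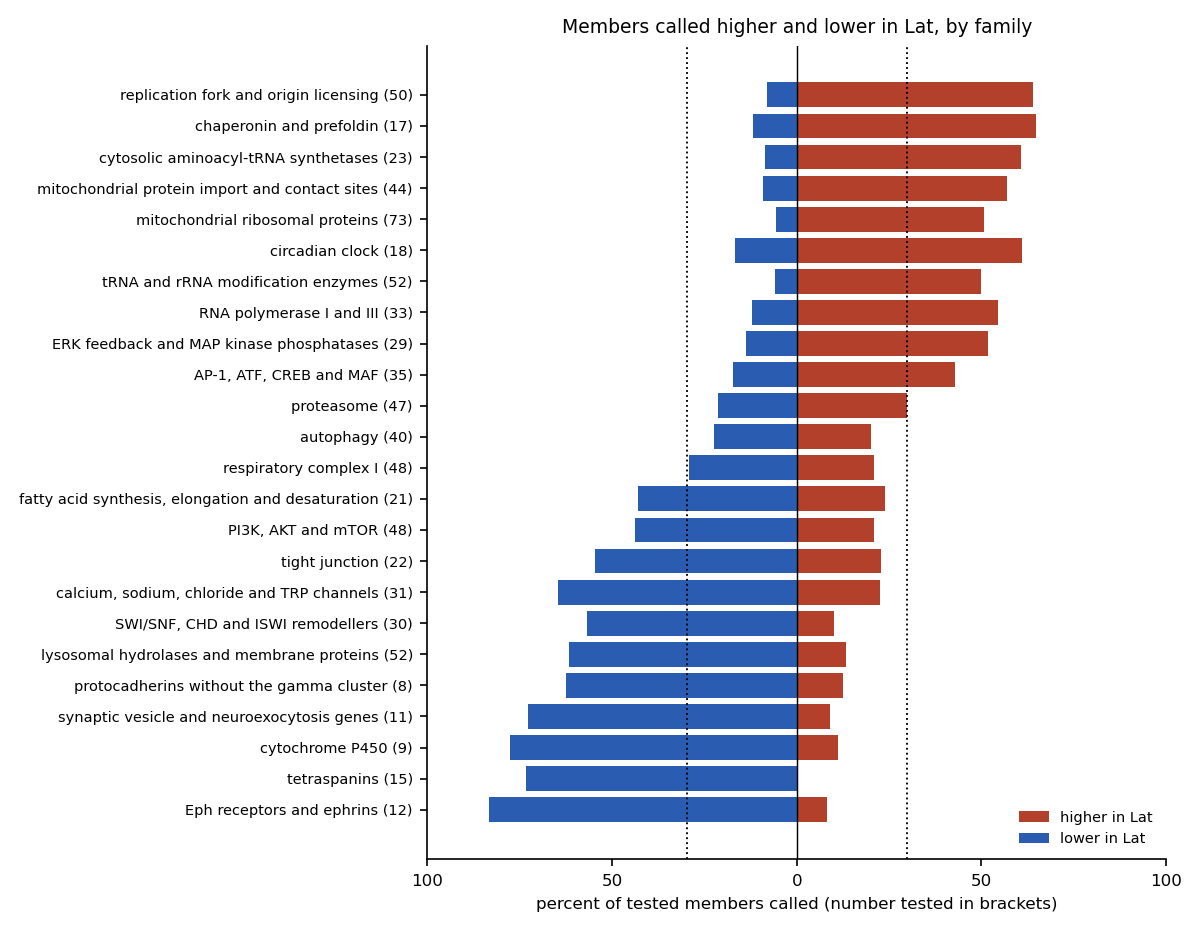
Share of the tested members of 24 gene families that were called higher in Lat (bars to the right) and lower in Lat (bars to the left), in percent; the dotted lines mark the shares over all 9493 genes tested, 30% higher and 29.7% lower. Families are ordered by the difference of the shares, with replication, chaperonin and aminoacyl-tRNA synthetase genes at the top and cytochrome P450 genes, tetraspanins and Eph receptors at the bottom; protocadherins are drawn without the gamma cluster.

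Lysosomal genes were lower in Lat as a family. Of 52 tested lysosomal hydrolases and membrane proteins, 32 were lower (61.5%, against 29.7% of all genes) and 7 higher, on 19 chromosomes, with a median of -0.52. Without S-BM 3 and S-BM 4, 30 were lower and the median was -0.60. FUCA2, a fucosidase, had 24.0, 21.5, 31.7 and 19.3 in Lat 1 to 4, against 99.6, 86.5, 69.1 and 75.2 in S-BM 1 to 4. CLN3, a lysosomal membrane protein, had 8.68, 8.20, 9.37 and 11.2 in Lat 1 to 4, against 29.8, 38.8, 26.8 and 27.0 in S-BM 1 to 4. MAN2B1, the lysosomal alpha-mannosidase, and PPT1, the thioesterase that removes palmitate from proteins, differed by -1.56 and -1.43.

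The cathepsin proteases followed, with 159, 136, 168 and 192 in Lat 1 to 4, against 314, 283, 325 and 345 in S-BM 1 to 4 for CTSD, and log2 differences of -1.58 for CTSS and -1.52 for CTSH. GAA, the lysosomal glucosidase, and GLB1, the beta-galactosidase, differed by -1.04 and -0.93, and LAMP1, a main membrane protein of the organelle, by a smaller -0.47. AGA, an amidase that acts on glycoproteins, was among the members that were higher, by 1.13. TFE3, a transcription factor of lysosomal genes that the list also holds, had 68.9, 69.3, 76.5 and 86.8 in Lat 1 to 4, against 45.3, 35.9, 41.4 and 43.6 in S-BM 1 to 4, higher in Lat without overlap. The proton pump of the same compartment, the V-ATPase, had 8 of 17 subunits lower and 3 higher, and autophagy genes had 9 lower and 8 higher of 40, a share of decreases below that of all genes. Without S-BM 3 and S-BM 4 the autophagy counts were 6 and 7.

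Factors of the TFE3 family bind the E-box letters CACGTG, which read the same on both strands. In the RefSeq promoter windows of build GRCh38.p14, each 250 bases before to 50 after an annotated start, these letters were present in 10 of 56 windows of 36 lysosomal genes (17.9%) and in 9.66% of the 11395 windows of all tested genes that matched the table. The share was not particular to lysosomal genes: it was 17.5% in the RNA polymerase I and III family and 15.6% in mitochondrial import, described below with more members higher than lower in Lat. Over all genes called higher the share was 10.2%, and over all called lower 9.16%. Upstream stretches of 4 lysosomal genes that were lower in Lat are shown because each holds the letters, which are in capitals, close to its start; a match is a description and not a binding site.
CLN3: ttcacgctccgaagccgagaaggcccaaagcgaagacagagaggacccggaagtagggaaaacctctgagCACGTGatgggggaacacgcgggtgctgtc
CTSD: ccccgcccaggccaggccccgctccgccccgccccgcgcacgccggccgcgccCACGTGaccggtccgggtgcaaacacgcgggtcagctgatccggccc
CTSA: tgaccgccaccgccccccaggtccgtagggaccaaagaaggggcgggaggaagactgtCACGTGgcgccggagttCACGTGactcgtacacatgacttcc
GAA: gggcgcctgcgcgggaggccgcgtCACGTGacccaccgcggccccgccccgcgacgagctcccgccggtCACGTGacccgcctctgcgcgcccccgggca

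The log2 differences of these genes were -1.600 for CLN3, -0.95 for CTSD, -0.67 for the protective protein CTSA and -1.04 for GAA. In build GRCh38.p14 the stretches shown, which end at the base before the annotated start, are chr16:28492075-28492174 (minus strand) for CLN3, chr11:1763928-1764027 (minus strand) for CTSD, chr20:45891235-45891334 (plus strand) for CTSA and chr17:80101481-80101580 (plus strand) for GAA. All 4 kept their direction and call without S-BM 3 and S-BM 4.

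Lists of vesicle traffic and secretion did not share 1 direction. Synaptotagmins and related exocytosis genes had 8 of 11 members lower and 1 higher. SYTL2 and SYTL4, synaptotagmin-like effectors of RAB27, had 60.8, 67.6, 55.5 and 80.6 in Lat 1 to 4, against 283, 349, 409 and 380.3 in S-BM 1 to 4 for SYTL2 and 2.003, 1.88, 1.81 and 2.37 in Lat 1 to 4, against 31.8, 43.2, 21.1 and 20.6 in S-BM 1 to 4 for SYTL4. The groups did not overlap for either gene, and SYT12 and the secretory GTPase RAB3D differed by -1.90 and -1.53. RAB27B was also called lower, at -0.74, but its groups overlapped through Lat 3 and the call was not kept without S-BM 3 and S-BM 4. UNC13D, a vesicle priming factor, was higher, at 0.42. The short list of granins and other genes of hormone granules had 3 of 5 tested members higher and 1 lower, against 3 and 0 without S-BM 3 and S-BM 4. SNARE proteins, which fuse membranes, had 9 higher and 13 lower of 36, and RAB GTPases, which direct vesicles, 12 and 14 of 48.

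Enzymes that modify drugs, steroids and other small molecules were lower more often than higher, to different extents by family. Cytochrome P450 genes had 7 of 9 lower and 1 higher, with a median of -1.06 that was -0.79 without S-BM 3 and S-BM 4. CYP4B1 had 0.822, 0.665, 0.362 and 1.05 in Lat 1 to 4, against 12.8, 36.4, 24.97 and 27.3 in S-BM 1 to 4. It passed the filter through S-BM alone, which set its direction. POR, the reductase that passes electrons to these enzymes, had 59.5, 54.5, 52.9 and 58.6 in Lat 1 to 4, against 107, 135, 142 and 154 in S-BM 1 to 4. CYP1B1, an enzyme that hydroxylates estrogens, differed by -1.06, and CYP4F11 was higher, at 0.59.

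The UDP-glucuronosyltransferases UGT1A1 and UGT1A3 to UGT1A10 come from first exons spliced to shared exons on chromosome 2, and their values are therefore a single measurement. UGT1A6 had 173, 171, 107 and 164 in Lat 1 to 4, against 448, 446, 531 and 545 in S-BM 1 to 4. Counting the glutathione transferases and related conjugating enzymes without that locus, 5 of 9 were lower and 2 higher, with GSTM3, GSTT1 and the estrogen sulfotransferase SULT1E1 at -1.58, -1.83 and -1.58 and MGST1 higher at 0.63. Aldo-keto reductases and short-chain dehydrogenases had 9 lower and 6 higher of 22 (40.9% and 27.3%, against 29.7% and 30% of all genes). Aldehyde dehydrogenases had 4 lower and 2 higher of 11 (36.4% and 18.2%), a share of decreases near that of all genes. AKR1B10, which reduces retinal and other aldehydes, had 12.4, 12.9, 4.40 and 15.5 in Lat 1 to 4, against 54.4, 104, 61.8 and 66.3 in S-BM 1 to 4, and the retinol dehydrogenases DHRS9 and RDH10 differed by -3.66 and -1.69.

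Lipid enzymes were called in both directions. Of the fatty acid synthesis, elongation and desaturation genes 9 were lower and 5 higher of 21, against 9 and 8 without S-BM 3 and S-BM 4. The desaturase SCD, which makes monounsaturated fatty acids, had 317, 325, 119.7 and 332 in Lat 1 to 4, against 1163, 1689, 1294 and 1337 in S-BM 1 to 4, whereas FADS1, the delta-5 desaturase of polyunsaturated fatty acids, had 46.4, 46.8, 46.2 and 55.4 in Lat 1 to 4, against 1.99, 1.87, 3.30 and 3.67 in S-BM 1 to 4. ACLY and FASN, which supply cytosolic acetyl-CoA and build palmitate, differed by -1.23 and -1.27, and the elongases ELOVL6 and ELOVL7 were higher by 1.42 and 1.496. ELOVL5, an elongase of polyunsaturated fatty acids, was lower, at -1.43. The desaturases SCD and FADS1 thus differed in opposite directions, and neither overlapped between the groups.

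Phospholipases and eicosanoid enzymes were lower for 11 and higher for 5 of 19. PTGS1, the cyclooxygenase COX-1, had 24.0, 25.3, 20.1 and 22.5 in Lat 1 to 4, against 1.71, 6.27, 2.62 and 2.27 in S-BM 1 to 4, and PTGES, a prostaglandin E synthase, had 667, 638, 714 and 675 in Lat 1 to 4, against 498, 283, 369 and 384 in S-BM 1 to 4. The 2 synthesis genes were higher in Lat while HPGD, described above, was lower. PLA2G16 and PLD1, a phospholipase A and a phospholipase D, differed by -3.10 and -1.77.

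Genes of mitochondrial biogenesis were higher in Lat. Protein import and contact site genes were higher for 25 of 44 members (56.8%, against 30% of all genes) and lower for 4, with a median of 0.37, and without S-BM 3 and S-BM 4 the counts were 25 and 3 and the median 0.43. GRPEL1, a co-chaperone of the import motor, had 149.9, 143, 128 and 155 in Lat 1 to 4, against 77.3, 53.5, 52.3 and 46.7 in S-BM 1 to 4. HSPD1, the mitochondrial chaperonin HSP60, had 1146, 1202, 1008 and 1015 in Lat 1 to 4, against 599, 427, 645 and 663 in S-BM 1 to 4. The groups did not overlap for either gene, and TOMM5 of the outer membrane pore and TIMM44 of the import motor were higher by 1.08 and 1.07. OPA1, the fusion GTPase, and the protease YME1L1 were lower, at -0.72 and -0.40.

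Mitochondrial ribosomal proteins were higher for 37 and lower for 4 of 73 members, the called ones on 19 chromosomes. No member was higher by 2-fold or more, the median was 0.28, and without S-BM 3 and S-BM 4 35 were higher and 0 lower. MRPS21 and MRPS2 led the family at 0.95 and 0.94. The respiratory chain did not move with them: complex I had 10 members higher and 14 lower of 48, and complexes II to V had 16 and 11 of 54, shares that are below or near those of all genes.

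**Figure D4:**
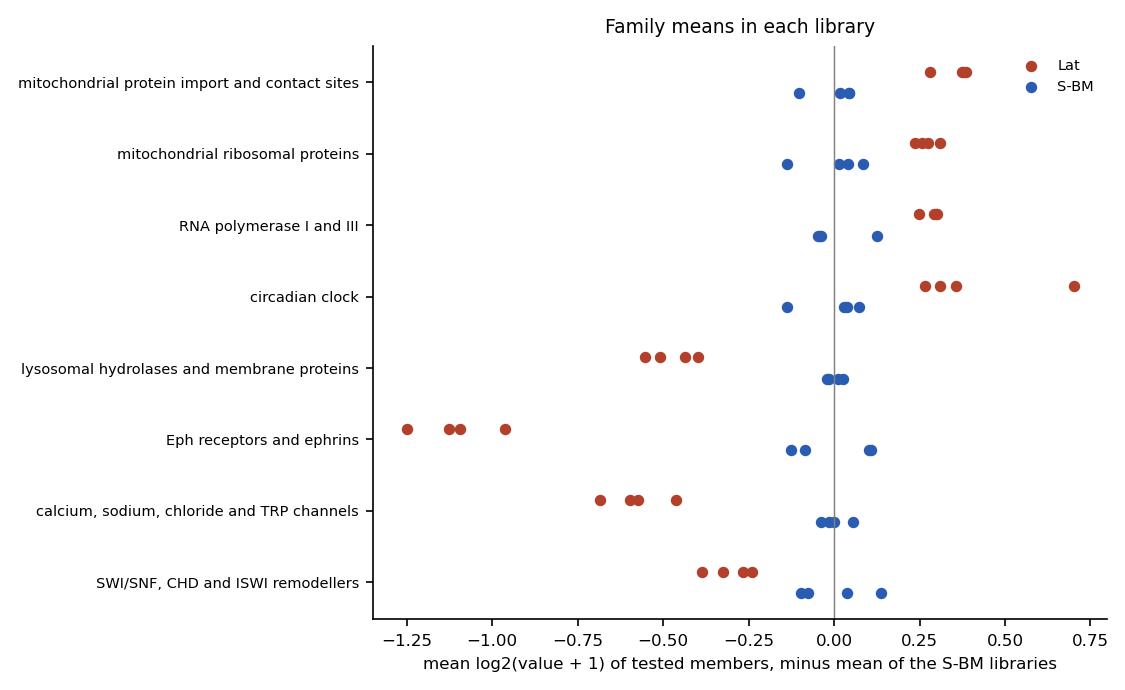
Mean log2(value + 1) of the tested members of 8 families in each library, minus the mean over the 4 S-BM libraries, with the Lat libraries above the S-BM libraries in each family. Lat lies to the right of S-BM for mitochondrial import, mitochondrial ribosomal proteins, RNA polymerase I and III and the circadian clock, and to the left for lysosomal genes, Eph receptors and ephrins, channels and chromatin remodellers.

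Several families that feed translation were also higher more often than lower, but the cytosolic ribosomal proteins were not, with 14 higher and 22 lower of 77 (18.2% and 28.6%) and 14 and 9 without S-BM 3 and S-BM 4. RNA polymerase I and III subunits and factors, which transcribe ribosomal and transfer RNA, had 18 of 33 members higher and 4 lower. POLR1E, a polymerase I subunit, had 107, 102, 134 and 93.03 in Lat 1 to 4, against 53.2, 43.2, 37.5 and 37.5 in S-BM 1 to 4, and TAF1A, of the polymerase I initiation complex, differed by 1.39. Cytosolic aminoacyl-tRNA synthetases were higher for 14 and lower for 2 of 23, with FARSB, the beta subunit of the phenylalanine enzyme, at 142, 145, 144 and 128 in Lat 1 to 4, against 68.6, 41.9, 68.5 and 63.7 in S-BM 1 to 4.

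The glutamine enzyme QARS was lower, with 63.9, 60.8, 52.8 and 70.3 in Lat 1 to 4, against 152, 154, 185 and 185 in S-BM 1 to 4, and the valine enzyme VARS differed by -0.59. Enzymes that modify tRNA and rRNA had 26 higher and 3 lower of 52, and 19 and 4 without S-BM 3 and S-BM 4. For the chaperonin and prefoldin genes, which fold actin and tubulin, the counts were 11 and 2 of 17, and 9 and 1 without these libraries. PDRG1, a prefoldin-like protein, led that family at 1.57. The proteasome had 14 higher and 10 lower of 47, that is 29.8% and 21.3%, with 13 and 6 without S-BM 3 and S-BM 4.

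The letters CCGGAAG, bound by ETS factors, occurred on either strand in 45% of promoter windows of the polymerase I and III family and in 31.1% of those of mitochondrial import, against 18.7% over all tested genes. Among all genes called higher the share was 23% and among those called lower 13.9%, and at 2-fold or more the shares were 18.7% and 6.16%. The CRE letters TGACGTCA were in 2.89% of windows of genes higher at 2-fold or more, 0.85% of those lower at 2-fold or more and 3.06% of all, and the AP-1 letters TGANTCA in 5.61%, 7.12% and 4.92% of the same sets. Stretches of 3 higher genes are shown to let the ETS letters be seen, in capitals on whichever strand they lie: the match nearest the start begins 13 and 10 bases before it in TIMM10 and TIMM13, of the import family, but 126 bases before it in POLR1B, of the polymerase family.
TIMM10: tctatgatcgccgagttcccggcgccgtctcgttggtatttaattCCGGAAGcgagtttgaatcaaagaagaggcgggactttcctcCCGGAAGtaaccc
TIMM13: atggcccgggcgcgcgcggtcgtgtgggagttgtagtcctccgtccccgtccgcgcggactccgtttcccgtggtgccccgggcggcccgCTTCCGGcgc
POLR1B: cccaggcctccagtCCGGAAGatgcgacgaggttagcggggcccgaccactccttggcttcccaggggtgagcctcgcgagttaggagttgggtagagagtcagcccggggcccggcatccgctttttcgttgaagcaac

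TIMM10 and TIMM13, chaperones of the intermembrane space, were higher by 0.82 and 0.89, and the polymerase I subunit POLR1B by 0.70. In build GRCh38.p14 the stretches shown, which end at the base before the annotated start, are chr11:57530755-57530854 (minus strand) for TIMM10, chr19:2427587-2427686 (minus strand) for TIMM13 and chr2:112541896-112542035 (plus strand) for POLR1B. Each of these 3 differences kept its direction and call without S-BM 3 and S-BM 4.

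Nuclear families divided by function. Replication fork and origin genes were higher for 32 and lower for 4 of 50, and without S-BM 3 and S-BM 4 for 21 and 4. MCM2, a subunit of the replicative helicase, had 92.0, 85.6, 98.7 and 73.4 in Lat 1 to 4, against 31.4, 28.7, 28.2 and 30.6 in S-BM 1 to 4, and ORC6 of the origin recognition complex was higher by 1.26. Outside the list E2F7, a repressor of the E2F family, had 44.5, 45.5, 57.2 and 47.4 in Lat 1 to 4, against 7.58, 6.88, 6.52 and 5.76 in S-BM 1 to 4.

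Chromatin remodellers of the SWI/SNF, CHD and ISWI classes went the other way, with 17 of 30 lower and 3 higher, the same counts without S-BM 3 and S-BM 4, and medians of -0.43 and -0.52. The core subunit SMARCC1 had 143, 147, 122 and 138 in Lat 1 to 4, against 341, 391, 332 and 320.5 in S-BM 1 to 4, and the ATPase SMARCA2 had 169, 179.9, 182 and 132 in Lat 1 to 4, against 354, 332, 334 and 337 in S-BM 1 to 4. BRD9, of a variant SWI/SNF complex, was lower at -0.98, and the remodeller CHD1 was higher at 0.83. Histone lysine methyltransferases and demethylases had 12 higher and 15 lower of 43, and polycomb genes 8 and 8 of 30.

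In signalling downstream of growth factor receptors, more feedback and related genes were higher than lower. The list holds ERK feedback inhibitors and targets, MAP kinase phosphatases and other regulators of the pathway. Of its 29 tested members 15 were higher and 4 lower. The medians were 0.42 and 0.51 with and without S-BM 3 and S-BM 4. PHLDA1 had 419.6, 454, 443 and 426 in Lat 1 to 4, against 246, 141, 153 and 164 in S-BM 1 to 4. ETV5, an ETS factor of this group, had 145, 146, 131 and 162 in Lat 1 to 4, against 100.2, 55.3, 54.3 and 57.3 in S-BM 1 to 4. The inhibitor SPRY4 and the phosphatases DUSP14, DUSP4 and DUSP6 were higher by 1.13, 1.00, 0.91 and 0.72, while SPRY2 was not called, at 0.11, and the receptor inhibitor ERRFI1 was lower, at -0.46.

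The kinases themselves did not rise together. MAPK3, which encodes ERK1, had 14.8, 13.4, 11.5 and 19.7 in Lat 1 to 4, against 38.5, 39.8, 30.8 and 30.1 in S-BM 1 to 4. It was lower in Lat, as was MAPK13, the p38 delta kinase, at -1.79. MAPK12 and MAPK11, the p38 gamma and beta kinases, and the scaffold MAPK8IP2 were higher by 2.32, 1.52 and 3.48, and these 3 lie together near the end of chromosome 22.

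In the PI3 kinase pathway 21 of 48 members were lower and 10 were higher. The regulatory subunit PIK3R1 had 20.6, 22.1, 14.3 and 25.5 in Lat 1 to 4, against 42.2, 159, 61.4 and 59.0 in S-BM 1 to 4, and the adaptor IRS2 was higher by 1.12. The kinase AKT2 was lower, at -0.64.

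AP-1, ATF, CREB and MAF factors had 15 higher and 6 lower of 35. After FOSL1 the largest increases were those of the small MAF protein MAFF, with 73.1, 67.2, 91.6 and 67.1 in Lat 1 to 4, against 19.6, 11.2, 20.02 and 20.5 in S-BM 1 to 4, and of DDIT3, the stress factor CHOP, with 54.4, 49.6, 76.5 and 56.8 in Lat 1 to 4, against 23.1, 13.8, 17.5 and 13.9 in S-BM 1 to 4. MAF and MAFG were higher by 1.63 and 1.13, and CREB3L4, a membrane-bound factor of the CREB3 type, was lower, at -1.13. Upstream stretches of MAFF, MAF and DUSP1 are shown because these higher genes hold the CRE letters TGACGTCA, in capitals.
MAFF: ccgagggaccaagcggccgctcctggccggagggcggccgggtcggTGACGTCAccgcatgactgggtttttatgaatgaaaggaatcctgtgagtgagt
MAF: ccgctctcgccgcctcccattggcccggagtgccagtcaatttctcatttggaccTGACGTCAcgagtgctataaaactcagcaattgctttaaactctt
DUSP1: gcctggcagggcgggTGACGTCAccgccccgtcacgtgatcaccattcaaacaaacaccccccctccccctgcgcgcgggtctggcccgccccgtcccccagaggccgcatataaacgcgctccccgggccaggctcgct

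DUSP1, a phosphatase of the ERK feedback group, was higher by 0.86. In build GRCh38.p14 the stretches shown, which end at the base before the annotated start, are chr22:38201894-38201993 (plus strand) for MAFF, chr16:79600738-79600837 (minus strand) for MAF and chr5:172771196-172771335 (minus strand) for DUSP1. In the AP-1, ATF, CREB and MAF family 6 of 56 windows held these letters (10.7%).

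NF-kappaB pathway genes were called in both directions, 18 higher and 13 lower of 38, which is above the share of all genes on both sides. MAP3K14, the kinase NIK of the non-canonical pathway, had 33.998, 31.8, 55.5 and 31.0 in Lat 1 to 4, against 7.12, 8.91, 5.92 and 8.26 in S-BM 1 to 4. The deubiquitinase CYLD had 162, 180.1, 164 and 141 in Lat 1 to 4, against 46.1, 42.2, 44.5 and 44.1 in S-BM 1 to 4. BIRC3 and TRAF2, which hold NIK in check, and MALT1, a protease of the pathway, were higher by 1.71, 1.44 and 1.27. NFKBIZ, an atypical inhibitor protein of the nucleus, was lower, with 7.96, 7.97, 9.78 and 5.65 in Lat 1 to 4, against 42.9, 48.8, 47.5 and 45.3 in S-BM 1 to 4, and the adhesion molecule ICAM1 differed by -1.001.

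Secreted signals were called in both directions, by class. Ligands of the PDGF and VEGF families were higher: PDGFC had 149, 156, 138 and 141 in Lat 1 to 4, against 43.5, 73.2, 38.9 and 43.6 in S-BM 1 to 4, and PDGFA, PDGFB, VEGFA and VEGFC differed by 1.06, 0.90, 0.89 and 0.96. GAS6, the ligand of AXL, was higher by 0.96. The binding protein IGFBP3 had 119, 119, 54.1 and 107 in Lat 1 to 4, against 379, 508, 574 and 564 in S-BM 1 to 4, and IGFBP5 and the matrix protein EFEMP1 were lower as well, at -3.05 and -2.57. Over the list of such ligands and binding proteins 6 of 11 were higher and 3 lower, the increases being the 6 ligands and the decreases IGFBP3, IGFBP5 and EFEMP1.

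Cytokines and their receptors had 7 of 22 higher (31.8%, near the 30% of all genes) and 10 lower (45.5%, against 29.7%). LIF, a cytokine of the interleukin 6 family, had 70.8, 64.3, 93.8 and 68.3 in Lat 1 to 4, against 21.2, 13.2, 24.4 and 22.99 in S-BM 1 to 4, and the interleukin 6 receptor IL6R was higher by 1.36. IL1RL1, the receptor ST2 of interleukin 33, had 16.1, 15.5, 53.3 and 15.7 in Lat 1 to 4, against 5.58, 0.708, 2.32 and 2.27 in S-BM 1 to 4. It was higher in every Lat library than in any S-BM library, and highest in Lat 3. CSF1, a growth factor of macrophages, had 23.01, 20.2, 17.1 and 18.9 in Lat 1 to 4, against 39.4, 71.2, 80.2 and 78.7 in S-BM 1 to 4, and the interleukin 1 receptor chains IL1R1 and IL1RAP were lower, at -1.27 and -1.49. JAK, STAT and SOCS genes had 10 lower and 1 higher of 18, with JAK2 and TYK2 at -1.09 and -1.20 beside STAT6.

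Coagulation and complement genes were called as often in each direction, 8 higher and 8 lower of 20. The protease inhibitor SERPINE2 had 83.1, 87.1, 95.5 and 129 in Lat 1 to 4, against 29.97, 23.2, 36.2 and 31.5 in S-BM 1 to 4. It was higher in Lat, as was the complement regulator CD55, by 1.58, opposite to PLAT, TFPI and CFI above.

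Clock genes formed a small family with a clear lean. 11 of 18 tested members were higher (61.1%) and 3 lower, the same counts without S-BM 3 and S-BM 4, with medians of 0.47 and 0.54. RORA, the nuclear receptor that activates ARNTL, had 17.3, 20.7, 17.8 and 18.4 in Lat 1 to 4, against 2.39, 4.15, 2.02 and 1.34 in S-BM 1 to 4. NR1D1, the receptor REV-ERB alpha that represses it, had 21.6, 20.5, 57.5 and 16.5 in Lat 1 to 4, against 10.1, 5.87, 11.8 and 11.9 in S-BM 1 to 4, with Lat 3 above the other Lat libraries. ARNTL, CRY1 and PER2 were higher by 0.96, 0.97 and 0.81, and CLOCK, the partner of ARNTL, was lower, with 91.8, 108, 107 and 97.1 in Lat 1 to 4, against 212, 190.1, 195 and 196 in S-BM 1 to 4. The labels give no hour of harvest, and its part in the result was not tested.

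The position of the called genes along the genome was uneven. Positions in RefSeq build GRCh38.p14 were found for 9398 of the tested genes, and chromosome arms with at least 75 tested genes were compared as descriptions. Genes were called higher for 70% of 110 on 4p, 64.7% of 184 on 20q, 57.7% of 307 on 9q and 57.3% of 131 on Xp, with median log2 differences of 0.66, 0.49, 0.37 and 0.46. Genes were called lower for 67.2% of 244 on 3p, 60.9% of 281 on 7q and 49.3% of 205 on 16p, with medians of -0.54, -0.43 and -0.30. Without S-BM 3 and S-BM 4 the medians were 0.49, 0.53, 0.33 and 0.55 for the arms with more increases and -0.49, -0.51 and -0.37 for those with more decreases. DNA copy number was not measured in these files and its part in the result was not tested.

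**Figure D5:**
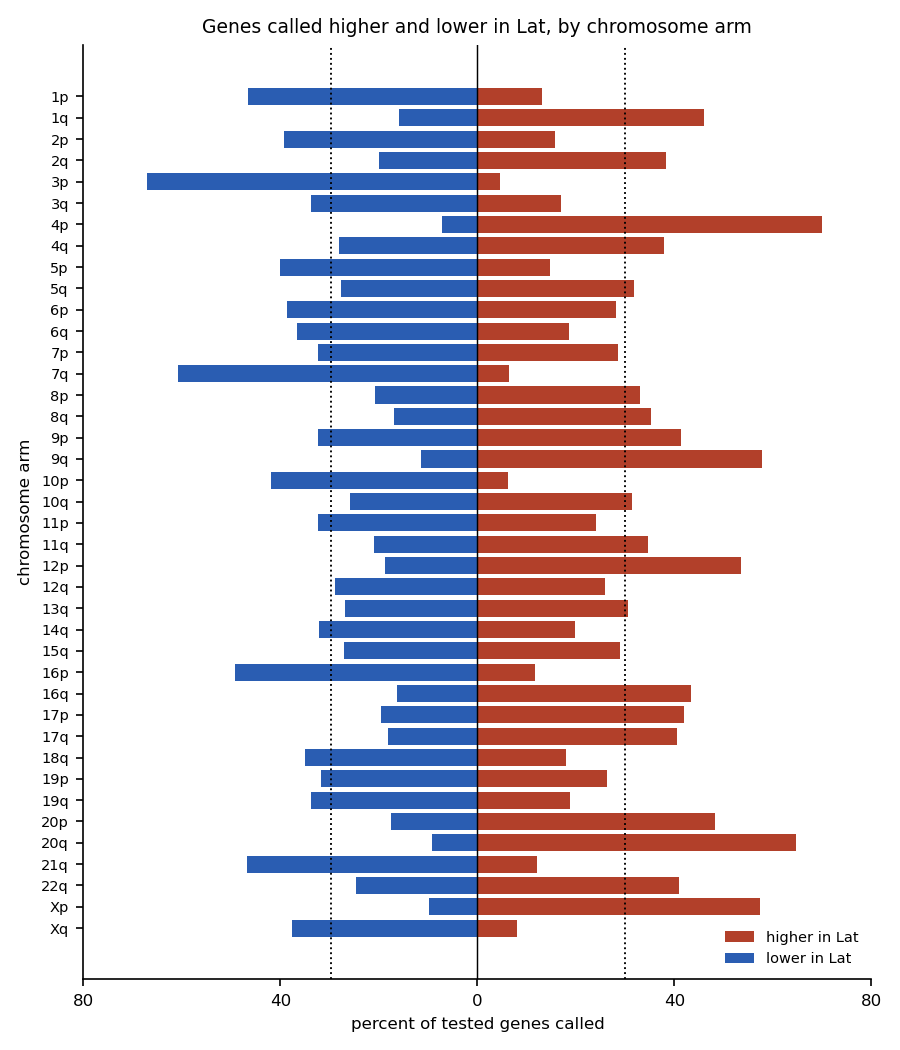
Percent of tested genes called higher (right) and lower (left) in Lat on each chromosome arm with at least 75 tested genes; dotted lines mark the shares over all genes, 30% and 29.7%. The arms 4p, 20q, 9q and Xp have the longest bars to the right, and 3p and 7q those to the left.

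Windows of 20 neighbouring tested genes located these regions more closely. Over all 8961 windows the 5th and 95th percentiles of the window medians were -0.51 and 0.56. The highest median, 1.32, belonged to chr22:49773278-50613978, from BRD1 to MAPK8IP2, where 19 of 20 genes were higher and none lower. Besides the 3 MAPK genes it holds PIM3, described above, and ADM2, a peptide hormone of the calcitonin family, with 55.3, 50.01, 49.9 and 62.3 in Lat 1 to 4, against 15.6, 12.7, 17.1 and 15.4 in S-BM 1 to 4.

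On chr3:31532925-38143022, from STT3B to MYD88, 19 of 20 genes were lower and the median was -1.03. OSBPL10, a lipid-binding protein, GPD1L, a glycerol-3-phosphate dehydrogenase-like protein, and CMTM6, which stabilises PD-L1 at the cell surface, differed by -2.13, -2.11 and -1.84. On chr9:4679569-15466735, from CDC37L1 to SNAPC3, 17 of 20 genes were lower and none higher, with a median of -1.04, although the arm 9p as a whole had 41.4% of its genes higher. JAK2 and SMARCA2 lie on 9p and SMARCC1, PLXNB1, SEMA3F and LAMB2 on 3p, and each was lower in Lat.

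A window on chr19:51345155-53103422, from ETFB to ZNF160, had a median of 1.00 with 13 of 20 genes higher and holds a cluster of KRAB zinc finger repressor genes. ZNF83 had 17.5, 19.7, 23.7 and 15.8 in Lat 1 to 4, against 0.171, 0.202, 0 and 0 in S-BM 1 to 4, ZNF611 had 25.7, 29.3, 33.5 and 28.1 in Lat 1 to 4, against 5.01, 7.59, 2.62 and 3.20 in S-BM 1 to 4 and ZNF28 had 65.3, 68.9, 64.9 and 59.7 in Lat 1 to 4, against 19.5, 28.7, 14.5 and 14.6 in S-BM 1 to 4. ZNF808, ZNF320 and ZNF702P of the same window were higher by 2.56, 3.06 and 3.53. These genes are near-identical copies in part, and how reads shared between them were counted is not given, so that their single values are uncertain. Over the whole genome numbered ZNF genes were higher for 84 (33.1%) and lower for 52 (20.5%) of 254, against 30% and 29.7% of all genes. At 2-fold or more the counts were 22 and 7, where all genes had 5.45% higher and 7.71% lower. Without S-BM 3 and S-BM 4, 63 of the 254 were called higher and 57 lower.

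Each family was also read against the arms its members lie on. After the median of its own arm was taken off each member, the median of the lysosomal family was -0.50, of mitochondrial import 0.31, of mitochondrial ribosomal proteins 0.28, of the Eph family -1.01, of the remodellers -0.30 and of the clock 0.48. Some other medians moved more. That of laminins and basement membrane genes went from -0.61 to -0.18, and that of cytokines and their receptors from -0.36 to -0.07. The median of semaphorins, plexins, netrins and slits went from -0.40 to -0.71.

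Some differences depended on S-BM 3 and S-BM 4. RPS6KA2, a ribosomal S6 kinase, had 11.5, 10.5, 2.28 and 12.2 in Lat 1 to 4, against 84.0, 86.0, 6.97 and 6.75 in S-BM 1 to 4. It was not called over all libraries and was called lower without S-BM 3 and S-BM 4, with a log2 difference of -3.28. AKR1C1, an aldo-keto reductase that inactivates progesterone, had 12.7, 12.6, 9.99 and 15.8 in Lat 1 to 4, against 61.5, 69.9, 15.4 and 11.4 in S-BM 1 to 4, and likewise was called only without S-BM 3 and S-BM 4, at -2.29. The amplicon genes GRB7 and STARD3 had log2 differences of 2.72 and 2.29 over all libraries and of 1.20 and 0.46 without S-BM 3 and S-BM 4. ARHGAP23, a GTPase-activating protein, was called neither with them, at -0.85, nor without them, at 0.04.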

How the data were processed

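RNA-seq libraries of HCC1954 derivatives were compared, 4 Lat against 4 S-BM, grouped by their labels. The deposited values are normalised counts per gene, a signal scaled by the authors with column sums between 963150 and 1014475 in the 8 libraries. Bowtie 0.12.2 and GRCh38 are named in the submitters' processing notes; no source used here gives the counter, annotation, scaling method or use of strand, so overlapping and antisense genes cannot be told apart. Every deposited value was a whole multiple of 1 step per library (100% of values within 0.05 of a whole read), which gave the reads recovered for depth and for the count tests.

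Genes with a value of at least 10 in 4 or more of the 8 libraries were tested with limma 3.58.1 (R 4.3.3), with a trend fit on log2(value + 1) over 12 libraries as 3 group means (9 residual degrees of freedom). M-BM libraries thus entered the spread. Tests were two-sided, with p-values adjusted by Benjamini-Hochberg over all 9493 genes. The procedure was also run on simulated counts with independent libraries and few changed genes. Those settings differ from the data here, so the run gives no error rate for these calls. Tables and figures were made with Python 3.11.15, pandas 2.3.3, numpy 2.4.6 and matplotlib 3.10.9.

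The comparison, families, lists and motifs were chosen with earlier results of these data known, so families are described by counts and medians, with no test. Genes were named by a rule: in each direction the 20 called genes of largest change whose groups did not overlap, with a mean of at least 50.2 in the higher group and with the call kept without S-BM 3 and S-BM 4, up to 4 called members per direction and family with a mean of at least 20, and up to 5 genes per window. Of 235 genes named, 180 followed the family and size parts of the rule, and the others were chosen after their values were seen; some genes that the rule picks are not reported here. Alternatives were other pseudocounts and filters, quantile normalization, edgeR 4.0.16, DESeq2 1.42.0, a fit of the 8 libraries, averaged pairs, a replicate block and leaving out libraries. Splitting off the PCDHG and UGT1A loci and taking off arm medians were chosen after seeing the data. Symbols matched a RefSeq promoter for 7819 genes (GRCh38.p14).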

Additional observations from a re-analysis of the deposited data

Results flagged for a closer look

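Within each group of 4 libraries, the value of every gene named in the text was examined on the log2(value + 1) scale for a library whose gap to its nearest neighbour took up nearly the whole range of the group (Dixon's test). Of 470 groups, 53 had such a library, and chance gives about 1 in 20. Lat 3 accounted for 22 of them, S-BM 2 for 10 and S-BM 1 for 11. The values below are normalised counts, and what sets these libraries apart was not tested.

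Lat 3 lay above the other Lat libraries for CGN (22.2), EPHB2 (41.5), FN1 (4950), FOSL1 (247), GPD2 (27.7), IL1RL1 (53.3) and MAP3K14 (55.5). The same held for PLEC (449), SLC43A3 (23.3), TMC5 (32.6) and ZDHHC4 (20). Lat 3 lay below the other Lat libraries for ADAM12 (21.6), CFI (1.29), CLCN4 (76.3), CLDN8 (3.83), IGFBP3 (54.1), PDGFA (54.3) and RPS6KA2 (2.28). The same held for SCD (120), SEMA3F (0.932), TRPV6 (16.1) and UGT1A6 (107). For FN1 the value of Lat 3, 4950, stood against 1795 to 1940.1 in the other Lat libraries. For GPD2 the value of Lat 3, 27.7, stood against 5.1 to 6.8 in the other Lat libraries. For IL1RL1 the value of Lat 3, 53.3, stood against 15.5 to 16.1 in the other Lat libraries.

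S-BM 2 lay above the other S-BM libraries for EFNA4 (21.4), IGFBP5 (230), SLC1A3 (325), TMPRSS4 (107) and TRPV6 (114). S-BM 2 lay below the other S-BM libraries for EPHA2 (53.5), FARSB (41.9), FOSL1 (6.88), MAFF (11.2) and PER2 (21.8).

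S-BM 1 lay above the other S-BM libraries for CHD1 (137), DHRS9 (105), DUSP4 (151) and ETV5 (100). S-BM 1 lay below the other S-BM libraries for CLDN1 (348), CSF1 (39.4), CTSH (157), HPGD (30.1), MARCKS (547), MSN (859) and PERP (657).

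Lat 4 lay above the other Lat libraries for FADS1 (55.4) and GNAI2 (26.5). Lat 4 lay below the other Lat libraries for EFNB2 (28.9), FARSB (128) and PIM3 (111). Lat 1 lay above the other Lat libraries for B3GNT3 (0.0514). Lat 1 lay below the other Lat libraries for SORT1 (90.5). Lat 2 lay above the other Lat libraries for WDR72 (0.111). S-BM 3 lay above the other S-BM libraries for AGA (30.3). S-BM 4 lay above the other S-BM libraries for TRAF2 (22.6).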

How the results depend on the processing

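The count of called genes (5668) stayed within 1.5 times its value under every alternative run, with 5671 by edgeR on recovered reads, 5807 by DESeq2, 5561 from the 8 libraries alone and 4781 with the most alike pairs averaged. Quantile normalization gave 5692, split into 3020 higher and 2672 lower. Leaving out each library in turn gave 5104 to 5474 called genes, 2520 to 2786 higher, 2584 to 2715 lower and 1191 to 1327 at 2-fold or more. The count at 2-fold or more, 1249, was 728 with a pseudocount of 10, which shrinks the differences of low genes, 2008 with the filter at a value of 1 and 2062 with no filter, which test more low genes. Of 4461 comparisons of single genes under the alternatives, 4437 kept direction and call, 8 lost the call, 14 gained it and 2 changed sign. Those 2 were called neither in the comparison as reported nor where the sign changed: ARHGAP23 at 0.041 and SPRY2 at -0.054 without S-BM 3 and S-BM 4. Of 1162 comparisons of family medians, 1054 moved by less than the spread between libraries (less than 0.25 for arm medians) and 103 by more. The sign changed in 22 comparisons, all with medians no farther from 0 than 0.080. After arm medians were taken off these were autophagy (-0.06), SNARE proteins (0.03) and RAB GTPases (-0.08). The RAB GTPase median was also -0.0261 without S-BM 3 and S-BM 4 and ran between -0.0139 (without Lat 3) and 0.0486 when single libraries were left out. The others were complement and coagulation, fatty acid synthesis and complex I.

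With the replicate number as a block, 5596 genes were called, 2802 higher and 2794 lower, with 1255 at 2-fold or more. The numbers are not taken to pair the libraries: deviations of same-numbered Lat and S-BM libraries correlated at -0.01, 0.20, 0.05 and -0.01.

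Precision is limited by 4 libraries per group of unstated origin, with S-BM 3 and S-BM 4 nearly alike, and by their depth. Genes at a few reads carry wide counting error. Members of a family can share a locus, as for PCDHG and UGT1A, so that counts of members are not counts of independent genes.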

Other observations

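Several families not described above also leaned to 1 direction. Kinesins, motors of microtubules, had 16 of 30 tested members higher and 6 lower. Their lean was weaker without S-BM 3 and S-BM 4, at 11 and 7, where all genes had 25.8% higher and 27.3% lower. KIFC3 had 26.4, 23.4, 29.3 and 22.9 in Lat 1 to 4, against 8.89, 4.71, 7.12 and 7.16 in S-BM 1 to 4, and KIF3B and KIF13B differed by 0.71 and -1.44 on the log2 scale. Kinetochore and spindle checkpoint genes had 21 of 44 higher and 2 lower, and 18 and 5 without S-BM 3 and S-BM 4. SKA3, which binds kinetochores to microtubules, led them at 1.55. For heme, porphyrin and iron-sulfur synthesis the counts were 14 higher and 4 lower of 32, with the cysteine desulfurase NFS1, which supplies sulfur for the clusters, at 50.9, 55.3, 58.9 and 57.2 in Lat 1 to 4, against 28.1, 24.8, 32.7 and 32.5 in S-BM 1 to 4. Genes of iron uptake, storage and export had 8 of 16 lower and 1 higher: the transferrin receptor TFRC and ceruloplasmin (CP) differed by -0.63 and -4.85, and the ferritin heavy chain FTH1 was higher, at 1.15.

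Coats and cargo receptors between the endoplasmic reticulum and the Golgi had 22 of 45 members lower and 8 higher. The COPII coat subunits SEC31A and SEC23B differed in opposite directions, by -1.03 and 0.89, and both kept their call without S-BM 3 and S-BM 4. G proteins and their effectors to protein kinase A had 19 of 49 lower and 5 higher. GNAI2, an inhibitory G protein subunit, had 21.8, 22.3, 21.8 and 26.5 in Lat 1 to 4, against 44.7, 49.2, 50.9 and 51.5 in S-BM 1 to 4, and PRKACB, a catalytic subunit of protein kinase A, and the arrestin ARRB1 differed by -0.80 and -1.92. Among actin regulators 20 of 47 were lower and 7 higher, with EZR and MSN, which encode ezrin and moesin and tie actin to the membrane, at -0.94 and -1.84. Forkhead factors had 8 lower and 1 higher of 14. FOXA1, a pioneer factor of luminal breast cells, had 52.0, 56.8, 46.7 and 49.4 in Lat 1 to 4, against 118, 137, 113 and 114 in S-BM 1 to 4, and FOXO1 and FOXC1 differed by -0.96 and -0.93.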
